A study of Homo sapiens with 3 samples.

Results

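Antisense long non-coding RNAs were examined in MDA-MB-231 cells after 2 different small interfering RNAs (siRNAs) had been directed at one such RNA, TMPO-AS1. Genes were taken as antisense when the platform annotation paired a probe set with exactly 1 symbol that ends in -AS and a number, with the targeted TMPO-AS1 itself left out. The brightest probe set stood for each gene, and the gene was kept when its mean log2 signal over the 3 arrays was at or above 4.42, which is the median of the means of all genes. Of 988 antisense genes, 278 passed (28.1%), where 16815 of all 33616 genes did. The antisense genes were thus selected on these mean signals. Since these means include the siRNA arrays, a gene that is high on an siRNA array alone could enter through it. A gene that is high on the control array alone could likewise enter through that array, which favours a ratio below control. For 258 of the 278, the gene whose symbol precedes -AS, called the sense gene here, also had a value, and for 187 that sense gene was itself at or above 4.42.

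MDA-MB-231 is a human triple-negative breast cancer line, kept in DMEM. Cells received siTMPO-AS1 #1 (1 array), siTMPO-AS1 #2 (1 array) or control siRNA, siControl (1 array), and total RNA was taken 48 hours after transfection and hybridised to Affymetrix arrays as biotin-labelled cRNA. No group had a replicate array and nothing in the labels says whether the cultures were separate, so a log2 ratio (siRNA array minus control array) has no replicate check, and both ratios of a gene share the control array. A gene is counted as higher or lower when it differed from control by at least 1.5-fold.

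Antisense RNAs are transcribed from the strand opposite to the gene they are named after. Some start close to the start of the sense gene and run away from it, from a promoter that serves both strands, and others lie across the body of the sense gene. A few are known to affect transcription of the neighbouring gene, to pair with its mRNA or to work elsewhere in the cell, while for most no role has been established.

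The targeted RNA and the identity of the cells were checked first. TMPO-AS1 had a log2 signal of 4.37 (siTMPO-AS1 #1) and 4.28 (siTMPO-AS1 #2) on the siRNA arrays, against 4.83 with siControl, and its sense gene TMPO, of the nuclear envelope protein thymopoietin, had 13.39 and 13.76 against 14.28. TMPO-AS1 lay below control by log2 ratios of -0.46 and -0.55, both inside 1.5-fold, and its signals on the siRNA arrays were under 4.42. TMPO, with -0.89 and -0.52, passed 1.5-fold with #1 only. Of the mesenchymal-like markers of this line that had a value, 5 of 5 were at or above 4.42 (VIM, CD44, AXL, MET and CAV1), and so were 3 of 6 hormone receptor and luminal markers. EPCAM (11.26 and 13.22 against 10.92), SPDEF (4.68 and 5.72 against 7.10) and GATA3 (6.66 and 5.61 against 5.25) had means above it, and the means of ESR1, PGR and FOXA1 were below it. Of the immune markers 2 of 4 and of the fibroblast markers 3 of 4 were at or above 4.42. CD68 (12.32 and 10.79 against 11.14) and TYROBP (4.75 and 5.67 against 4.93) were the immune markers with means above 4.42. The T cell gene CD3E and the leukocyte gene PTPRC had means below it. LUM, COL1A1 and PDGFRB were the fibroblast markers above 4.42, and DCN was below it. The part of other cell types in the results was not tested. In a bulk sample, fewer cells that express a gene and less of its RNA per cell cannot be told apart.

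Most antisense genes gave dim signals. Their means over the 3 arrays ran from 4.42 to 16.51 with a median of 5.49, where the median of all genes tested was 7.79, and 49 of 278 were at 8 or more. On all 3 arrays 224 were at or above 4.42. Another 20 were below it in control cells and passed through an siRNA array, so they had to be higher there. A further 34 were at or above it in control cells but not on both siRNA arrays, so they had to be lower on at least 1 of these arrays. With both siRNA arrays below it, 3 of them were included through the control array alone. In all, 15 were at or above it on 1 array only. Just inside the limit stood RUNDC3A-AS1, PABPC1L2B-AS1 and INSYN1-AS1 with means of 4.421, 4.431 and 4.434, and just outside it NOP53-AS1, RNF217-AS1 and KIF9-AS1 with 4.415, 4.411 and 4.403. A RefSeq gene table (assembly GRCh38.p14) matched 253 of the 278 by gene identifier, and it typed all of these 253 as long non-coding RNA.

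The brightest antisense signals were nearly level across the arrays for some genes and not for others. RBMS3-AS2 had 16.48 and 16.49 with the siRNAs, against 16.57 with siControl. These values are above 16, the log2 of the brightest value that a 16-bit scan can record, so the signal may have been transformed further before deposit. NUTM2A-AS1 had 13.65 and 14.33 against 14.17, and SVIL-AS1 had 12.40 and 12.66 against 12.30. PSMA3-AS1, named after a proteasome subunit gene, had 11.62 and 11.32 against 11.72. FGD5-AS1 had 11.94 and 11.64 against 11.48, and ZBTB46-AS1 had 11.81 and 12.53 against 12. All of these stayed within 1.5-fold of control on both siRNA arrays. THAP9-AS1 (11.62 and 11.21 against 10.70) passed 1.5-fold with siTMPO-AS1 #1, and PRRT3-AS1 (12.64 and 10.85 against 11.38) was 2.4-fold higher with it.

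With siTMPO-AS1 #1, 49 antisense genes were higher (17.6%, where 16.6% of all genes tested were) and 39 were lower (14.0%, where 18.8% of all genes tested were). With siTMPO-AS1 #2, 35 were higher (12.6%, against 16.1% of all genes tested) and 44 were lower (15.8%, against 10.4%). Antisense genes had a median log2 ratio of 0.01 on the #1 array and -0.02 on the #2 array, beside 0.03 and 0.09 for all genes tested. When the ratios were centred on the median of all genes tested, the split with siTMPO-AS1 #2 was 25 higher (8.99%, against 12.5% of all genes tested with the same centring) and 52 lower (18.7%, against 13.1%). With siTMPO-AS1 #1 the centred split was 45 higher (16.2%, against 15.7%) and 42 lower (15.1%, against 19.6%). These shares describe 2 pairs of arrays, and no test stands behind them.

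The share of genes past 1.5-fold differed by brightness. With siTMPO-AS1 #2, 22 of 174 antisense genes with a mean below 6 were lower (12.6%, against 8.74% of all genes tested of that brightness), 11 of 55 between 6 and 8 (20% against 11.3%) and 11 of 49 at 8 or above (22.4% against 11.1%). With siTMPO-AS1 #1 the shares lower were 9.77%, 20% and 22.4% of antisense genes, against 12.2%, 17.3% and 23.6% of all genes. The share lower with siTMPO-AS1 #2 was thus above that of all genes in each range, and with siTMPO-AS1 #1 it lay below in the dimmest and the brightest range.

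**Figure D1:**
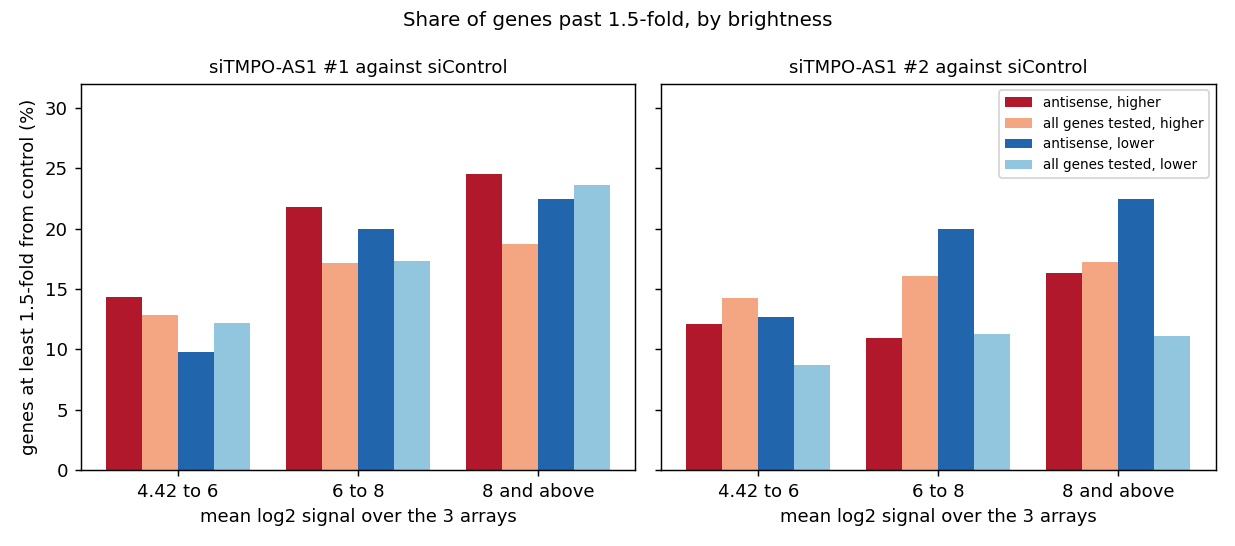
Share of genes at least 1.5-fold higher (red) or lower (blue) than siControl, in percent, by mean log2 signal over the 3 arrays; dark bars are the 278 antisense genes and pale bars all 16815 genes tested, with siTMPO-AS1 #1 on the left and siTMPO-AS1 #2 on the right. With siTMPO-AS1 #2 the dark blue bars (12.6%, 20% and 22.4%) stand above the pale blue ones (8.74%, 11.3% and 11.1%).

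Other non-coding classes were counted in the same way. Among 167 genes named LINC and a number, 24 were lower (14.4%) and 23 higher (13.8%) with siTMPO-AS1 #2, and among 47 genes ending in -DT (divergent transcripts) 10 were lower (21.3%) and 5 higher (10.6%). Among 31 genes ending in -IT and a number, 3 were lower (9.68%) and 2 higher (6.45%). Of 620 genes that RefSeq types as long non-coding, the matched antisense genes among them, 91 were lower (14.7%) and 71 higher (11.5%). Among 10853 protein-coding genes 1223 were lower (11.3%) and 2103 higher (19.4%). The antisense figures with siTMPO-AS1 #2 were 15.8% lower and 12.6% higher. They cannot be set against the 620 long non-coding genes as a separate class, since 253 of these are the antisense genes themselves. With siTMPO-AS1 #1 the shares lower were 14.0% of antisense, 14.4% of LINC, 10.6% of -DT and 12.9% of -IT genes. They were 15.8% of the 620 long non-coding genes and 23.8% of protein-coding genes. The difference between classes was not tested.

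Of the antisense genes above control on both siRNA arrays, those with the largest smaller ratio are given here. NRSN2-AS1 had 7.96 with siTMPO-AS1 #1 and 7.06 with siTMPO-AS1 #2, against 6.10 with siControl, or 3.64-fold and 1.95-fold. Its sense gene NRSN2, of a neuronal membrane protein, had 9.68 and 9.38 against 9.51. The antisense signal thus differed from control while the sense signal was nearly level.

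PAXIP1-AS2 had 8.94 and 8.05 against 7.11 (3.55-fold and 1.92-fold). PAXIP1, which encodes an adaptor of DNA damage signalling and histone methylation, had 13.06 and 12.12 against 12.93. RBMS3-AS3 had 5.57 and 5.30 against 4.12 (2.74-fold and 2.26-fold), so its control signal lay under 4.42. Its sense gene RBMS3, an RNA-binding protein gene, had 11.92 and 10.89 against 11.51, and RBMS3-AS2 was level as given above. The 2 antisense genes named after RBMS3 therefore had different ratios.

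KRT10-AS1, which lies across the gene of the epidermal keratin KRT10, had 11.17 and 11.30 against 10.16 (2.02-fold and 2.21-fold). It was the brightest of this group and its ratios were close to each other. KRT10 itself had 4.38 and 4.36 against 4.58, near the limit of 4.42. SCOC-AS1 had 6.02 and 5.27 against 4.51 (2.84-fold and 1.70-fold). SCOC, whose protein is linked to the Golgi and to autophagy, had 13.72 and 13.54 against 12.95 and was above control as well. RAB6C-AS1 had 6.13 and 6.24 against 5.43, and RAB6C, of the RAB family of membrane traffic GTPases, had 9.26 and 9.43 against 8.43, so both members of this pair were above control by 1.5-fold or more on both arrays.

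Among antisense genes below control on both siRNA arrays, DNMBP-AS1 had 6.90 and 5.66 against 7.78 (1.85-fold and 4.35-fold lower). DNMBP, which encodes an activator of the GTPase CDC42, had 14.52 and 14.84 against 15.03. PTPRG-AS1 had 9.21 and 8.45 against 10.01 (1.74-fold and 2.97-fold lower), whereas PTPRG, a receptor tyrosine phosphatase gene, had 8.36 and 11.25 against 11.04. The sense gene was low only on the siTMPO-AS1 #1 array, and the antisense gene was lower still on the other one.

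ZEB1-AS1 is named after ZEB1, a transcription factor gene of the epithelial to mesenchymal transition. It had 8.49 and 8.53 against 9.56 (2.10-fold and 2.03-fold lower), so the siRNA arrays were alike. ZEB1 had 15.26 and 13.65 against 15.23, level with siTMPO-AS1 #1 and lower with siTMPO-AS1 #2. TPT1-AS1 had 9.29 and 8.68 against 10.04, and PSMG3-AS1 had 4.95 and 4.31 against 5.82. The lower of these PSMG3-AS1 signals, with siTMPO-AS1 #2, was under 4.42. DEPDC1-AS1 had 4.88 and 4.64 against 5.71. Its sense gene DEPDC1, which is expressed in dividing cells, had 10.96 and 12.37 against 13.89, so both were lower on both arrays.

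**Figure D2:**
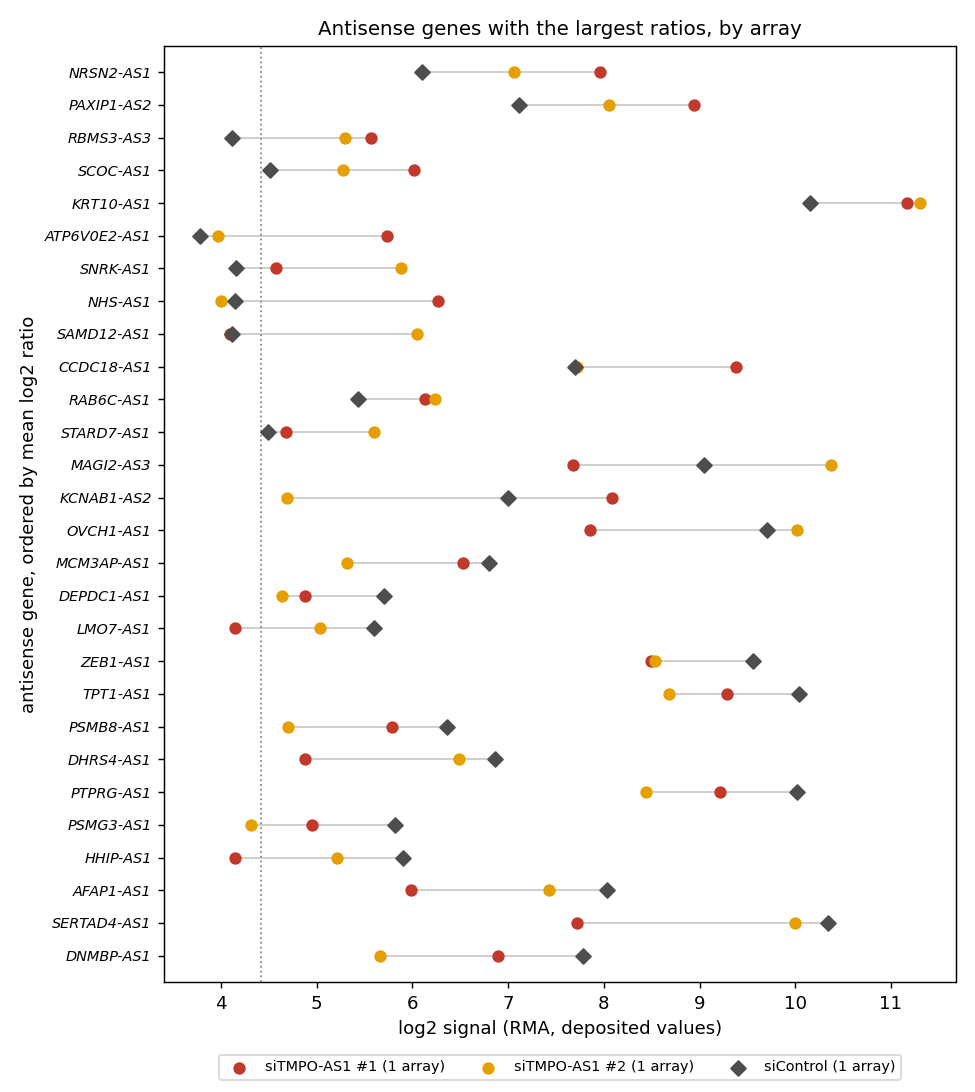
Log2 signal (horizontal axis) of the antisense genes with the highest and lowest ratios on either siRNA array or on both, ordered by mean log2 ratio; each point is 1 array, circles for siTMPO-AS1 #1 (red) and #2 (orange) and diamonds for siControl, and the dotted line marks 4.42. For NRSN2-AS1 both siRNA points (7.96 and 7.06) lie above control (6.10), and for DNMBP-AS1 both (6.90 and 5.66) lie below it (7.78).

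Both siTMPO-AS1 arrays were also fitted together against the control array with limma over all 16815 genes. Its single measure of spread (1 residual degree of freedom) is the difference between 2 different siRNAs, and it takes the lone control to vary as much as they do. It called 0 genes at an adjusted p under 0.05 (0% of all genes tested), and 261 genes (1.55%) had an unadjusted p under 0.05. Only 1 of the 278 antisense genes was among these 261, RBMS3-AS3 (mean log2 ratio 1.32, SE 0.45, unadjusted p = 0.0398, limma adjusted p = 1, above control on 2 of 2 arrays). With an intensity trend limma also called 0 genes, with 287 at an unadjusted p under 0.05, 2 of them antisense. RBMS3-AS3 had 4.12 with siControl, under the limit of 4.42, and 5.57 (siTMPO-AS1 #1) and 5.30 (siTMPO-AS1 #2) on the siRNA arrays. It was included through the siRNA arrays, so its selection favoured a ratio above control. The unadjusted p of RBMS3-AS3 does not allow for this selection. For NRSN2-AS1 the mean ratio was 1.42 (SE 0.58), for KRT10-AS1 1.08 (SE 0.44), for ZEB1-AS1 -1.04 (SE 0.44) and for DNMBP-AS1 -1.50 (SE 0.68).

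Other antisense genes were far from control mainly with siTMPO-AS1 #1. SERTAD4-AS1 had the lowest ratio, with a signal of 7.72 on the #1 array and 9.99 on the #2 array, against 10.35 with siControl (6.17-fold lower with #1). With the mean of its probe sets the log2 ratio with #1 was -1.44 in place of -2.62. AFAP1-AS1, DHRS4-AS1, OVCH1-AS1, HHIP-AS1 (-1.76) and LMO7-AS1 (-1.46) were then lower. SERTAD4-AS1 had 4 probe sets, and the identifier of the brightest begins with TSUnmapped. The next brightest had 5.09 and 7.29 against 7.05 and was also low with #1 only. The other probe sets had log2 ratios of -0.64 and -0.53 with #1. SERTAD4 had 6.71 and 7.35 against 8.35.

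AFAP1-AS1, described in several cancers and named after an actin filament-associated protein gene, had 5.99 and 7.43 against 8.03 (4.13-fold and 1.52-fold lower), with AFAP1 at 7.32 and 8.07 against 7.58. DHRS4-AS1 had 4.88 and 6.49 against 6.86, OVCH1-AS1 had 7.85 and 10.02 against 9.70, and LMO7-AS1 had 4.14 and 5.04 against 5.60. The #1 signal of LMO7-AS1 was under 4.42. In the other direction NHS-AS1 had 6.27 with siTMPO-AS1 #1 and 4.0 with siTMPO-AS1 #2, against 4.15 with siControl. Only the #1 array was above 4.42, and it is through this array that the gene was included. NHS, whose protein helps to organise actin, had 7.11 and 7.11 against 5.91 and so was above control on both arrays. ATP6V0E2-AS1, with 5.73 and 3.97 against 3.78, was likewise included through the #1 array alone. CCDC18-AS1 had 9.38 and 7.72 against 7.70.

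Others were far from control mainly with siTMPO-AS1 #2. SAMD12-AS1 had 4.10 with #1 and 6.05 with #2, against 4.12 with siControl, and was included through the #2 array alone. SAMD12 had 6.24 and 8.04 against 6.73, so the #2 array was the highest for both genes. SNRK-AS1 had 4.58 and 5.88 against 4.16, while the kinase gene SNRK had 8.83 and 8.47 against 8.59. SNRK-AS1 too was under 4.42 in control cells and was included through the siRNA arrays. STARD7-AS1, named after a lipid transfer protein gene, had 4.68 and 5.60 against 4.49. The lowest ratio with #2 was that of KCNAB1-AS2, which had 8.08 and 4.68 against 7 (4.96-fold lower with #2 and 2.12-fold higher with #1). Its sense gene KCNAB1, of a potassium channel subunit, was dim, with 4.13 and 4.27 against 3.69. PSMB8-AS1, next to a subunit gene of the immunoproteasome, had 5.79 and 4.70 against 6.36. MCM3AP-AS1 had 6.53 and 5.32 against 6.80, and MCM3AP, which works in mRNA export, had 6.25 and 6.43 against 6.10.

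The 2 siRNA arrays can be compared without the control array. Between them, 64 antisense genes were at least 1.5-fold higher with siTMPO-AS1 #1 than with #2 (23.0%, against 14.9% of all genes tested), and 45 were lower (16.2%, against 22.7%). The median difference was 0.03 for antisense genes and -0.07 for all genes tested. KCNAB1-AS2 (8.08 against 4.68), RAP2C-AS1 (9.5 against 6.82) and NHS-AS1 (6.27 against 4.0) were furthest above #2 with #1. MAGI2-AS3 (7.68 against 10.37), SERTAD4-AS1 (7.72 against 9.99) and OVCH1-AS1 (7.85 against 10.02) were furthest below. PRRT3-AS1 (12.64 against 10.85) and NUTM2A-AS1 (13.65 against 14.33), both among the brightest, were also more than 1.5-fold apart. Relative to the control array that both ratios share, 7 antisense genes passed 1.5-fold in opposite directions with the siRNAs (2.52%, where 3.29% of all genes tested did). No replicate separates such a difference from the spread between arrays.

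Of 43 antisense RNAs described in cancer, 38 had a value and 22 were at or above 4.42. With siTMPO-AS1 #1, 3 of 22 were higher and 6 lower (median log2 ratio -0.27), where 16.6% and 18.8% of all genes tested were. With siTMPO-AS1 #2, 3 were higher and 6 lower (median -0.25), where 16.1% and 10.4% of all genes tested were. Besides AFAP1-AS1, ZEB1-AS1 and MCM3AP-AS1, the members with the largest mean absolute ratio were HIF1A-AS2, DSCAM-AS1 and TTN-AS1. HIF1A-AS2 had 9.38 and 9.09 against 10.08, but its second probe set had 8.49 and 7.5 against 7.82, so the probe sets went opposite ways with #1. HIF1A, the oxygen-sensitive transcription factor gene, had 17.98 and 17.66 against 17.71. The mean of both HIF1A-AS2 probe sets had a log2 ratio of -0.01 with #1. DSCAM-AS1, a luminal breast cancer RNA, had 4.86 and 4.10 against 5.54, with the #2 signal under 4.42. TTN-AS1 had 7.27 and 6.88 against 6.21, and the mean of the titin gene TTN was below 4.42.

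The 187 pairs with both genes at or above 4.42 involve 185 sense genes. With siTMPO-AS1 #1, antisense and sense were both past 1.5-fold in the same direction in 22 pairs, 11 of them higher and 11 lower, and in opposite directions in 14. With siTMPO-AS1 #2 they were past 1.5-fold the same way in 13 pairs, 5 higher and 8 lower, and opposite ways in 5. In most pairs at most 1 of the genes passed. With #1, 29 antisense genes passed while the sense gene did not, and 52 sense genes passed while the antisense gene did not. With #2 these counts were 34 and 56. In all, the antisense gene passed in 65 pairs and the sense gene in 88 with #1, and in 52 and 74 with #2. With #1, 21.6% of the 185 sense genes were higher and 25.4% lower, against 16.6% and 18.8% of all genes tested. With #2 the shares were 22.2% and 16.8%, against 16.1% and 10.4%. Whether pairs passed together more often than these shares would give was not tested.

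The antisense and sense ratios were nearly unrelated across pairs. Pearson's r was 0.10 for the #1 array and 0.16 for the #2 array, and Spearman's rho was 0.13 and 0.15, over 187 pairs that share the same arrays and are not independent replicates. Antisense and sense lay on the same side of control in 101 of 187 pairs (54.0%) with #1 and in 95 (50.8%) with #2. For the difference between the siRNA arrays, which does not use the control, r was -0.03 and rho 0.02. The median distance between the antisense and the sense log2 ratio was 0.68 with #1 and 0.56 with #2.

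**Figure D3:**
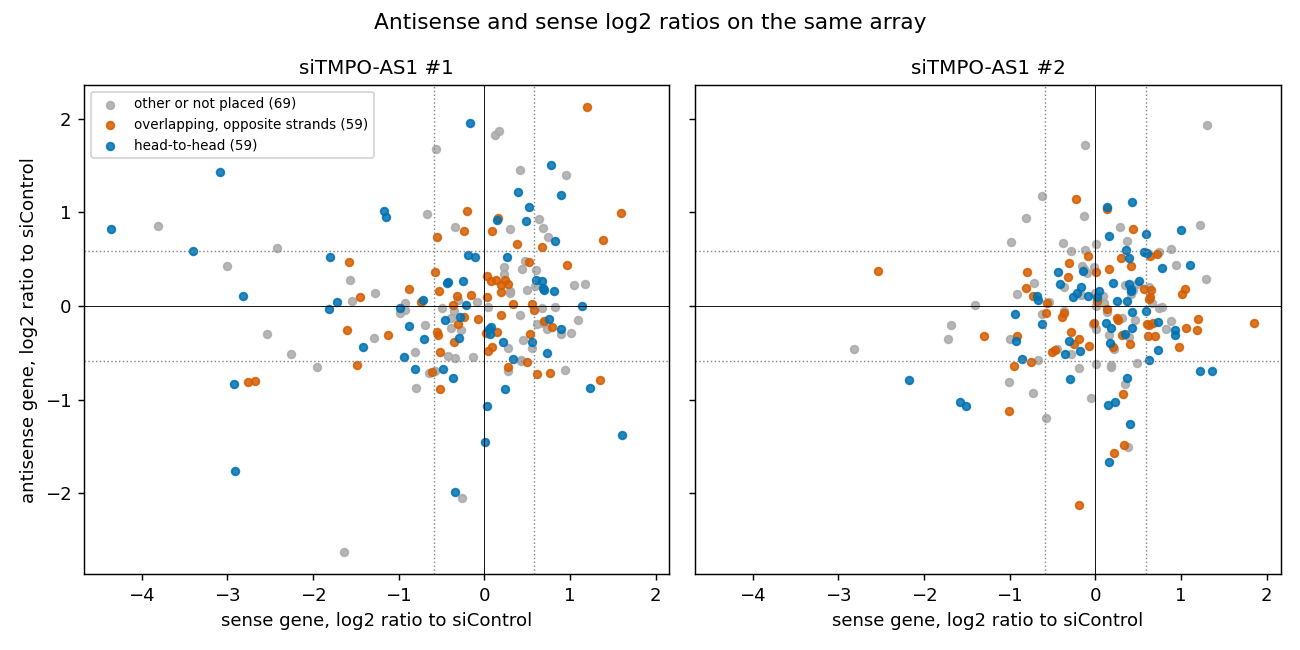
Log2 ratio to siControl of the sense gene (horizontal axis) and of its antisense gene (vertical axis) with siTMPO-AS1 #1 (left) and siTMPO-AS1 #2 (right); each point is 1 of 187 pairs, coloured by arrangement, and the dotted lines mark 1.5-fold. The points form no diagonal, and the sense ratios spread wider with #1 (lowest -4.36) than with #2 (lowest -2.82).

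Transcript starts in RefSeq placed 162 of the 278 antisense genes relative to their sense gene. Of these, 73 were head-to-head, on opposite strands with the nearest listed starts at most 1000 bases apart, 77 overlapped the sense gene on the opposite strand with starts further apart, 11 lay on the opposite strand without overlap and 1 lay on the same strand. In head-to-head pairs with both genes at or above 4.42 (59), 6 passed 1.5-fold the same way and 7 opposite ways with siTMPO-AS1 #1, and 5 and 2 did with #2. In overlapping pairs (59), 8 passed the same way and 3 opposite ways with #1, and 3 and 0 did with #2. Pearson's r was -0.04 and 0.26 with #1 and #2 in head-to-head pairs and 0.34 and 0.05 in overlapping pairs, so neither arrangement had the higher value on both arrays. For the difference between the siRNA arrays r was -0.27 in head-to-head and 0.10 in overlapping pairs. In the 63 pairs not placed r was 0.22 with #1 and 0.22 with #2. Whether r differs by arrangement was not tested. Whether strand was used in building the signals was not stated, so for overlapping genes signal from the sense and the antisense RNA may not be told apart.

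The bases between the starts of head-to-head pairs are shown, since both genes can start from this stretch. The 4 pairs with the nearest starts come first, followed by RTCA-AS1, HHIP-AS1 and ZEB1-AS1, which were chosen for display after their values were seen. Each is read 5′ to 3′ along the antisense strand from RefSeq, build GRCh38.p14. Capitals run from one start to the other, and up to 30 bases on either side are in lower case.
TAF1A-AS1 (chr1:222589890-222589963, plus strand): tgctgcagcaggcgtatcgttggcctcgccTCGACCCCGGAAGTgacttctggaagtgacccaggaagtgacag
ZNF407-AS1 (chr18:74597805-74597900, minus strand): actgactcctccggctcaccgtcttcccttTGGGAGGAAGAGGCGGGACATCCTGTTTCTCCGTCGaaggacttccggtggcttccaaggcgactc
SPART-AS1 (chr13:36346364-36346461, plus strand): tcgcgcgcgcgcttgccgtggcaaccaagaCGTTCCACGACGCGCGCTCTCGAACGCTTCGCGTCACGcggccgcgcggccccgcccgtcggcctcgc
PSMB8-AS1 (chr6:32844017-32844116, plus strand): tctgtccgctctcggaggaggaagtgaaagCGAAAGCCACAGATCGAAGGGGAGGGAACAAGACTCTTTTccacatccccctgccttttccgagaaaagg
RTCA-AS1 (chr1:100266144-100266246, minus strand): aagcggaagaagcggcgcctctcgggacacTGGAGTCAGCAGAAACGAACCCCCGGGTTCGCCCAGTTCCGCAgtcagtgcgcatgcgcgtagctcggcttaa
HHIP-AS1 (chr4:144645989-144646186, minus strand): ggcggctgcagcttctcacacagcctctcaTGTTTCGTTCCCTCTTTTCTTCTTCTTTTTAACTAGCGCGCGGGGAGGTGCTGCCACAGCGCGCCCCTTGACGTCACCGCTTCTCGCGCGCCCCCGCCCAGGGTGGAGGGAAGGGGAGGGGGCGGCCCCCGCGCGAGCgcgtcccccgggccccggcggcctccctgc
ZEB1-AS1 (chr10:31320417-31320584, minus strand): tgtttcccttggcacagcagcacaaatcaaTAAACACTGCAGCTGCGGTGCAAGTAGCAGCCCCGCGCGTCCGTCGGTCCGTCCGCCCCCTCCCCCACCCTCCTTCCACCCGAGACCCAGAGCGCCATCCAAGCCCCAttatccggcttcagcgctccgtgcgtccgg

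In TAF1A-AS1 the 5′ ends overlap, with the sense start 13 bases inside the antisense transcript, and in the other 6 the genes run apart, with 35, 37, 39, 42, 137 and 107 bases between the starts. The following shares use windows from 250 bases before to 50 after the first listed start of each gene. That start need not be the one nearest the sense gene. A CCAAT sequence, searched on both strands like the others, was found for 28.8% of the 73 head-to-head antisense genes and 35.7% of 27303 genes in the RefSeq table. GGGCGG, the core of a GC box, was found for 64.4% and 44.6%, and TATAAA for 4.1% and 12%. The median GC content was 67.0% and 58.3%. For antisense genes that overlap their sense gene further away, GGGCGG was found for 44.2% and the median GC content was 58.7%. These matches describe the sequences and do not show that a factor binds.

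Whether genes with starts so near each other shared their ratios varied from pair to pair. TAF1A-AS1 had 5.51 with siTMPO-AS1 #1 and 4.90 with #2, against 4.33 with siControl, and TAF1A, a subunit of the factor that recruits RNA polymerase I, had 8.99 and 8.69 against 8.09. Both genes were above control on both arrays, but TAF1A-AS1 was under 4.42 in control cells and was included through the siRNA arrays. ZNF407-AS1 had 8.82 and 7.95 against 7.81, while the zinc finger gene ZNF407 had 7.68 and 8.63 against 8.85. With #1 the antisense gene was thus about 2-fold above control and the sense gene more than 2-fold below it.

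SPART-AS1 had 6.27 and 6.87 against 6.60, and SPART, the gene of the endosomal and lipid droplet protein spartin, had 12.33 and 13.13 against 12.63. Neither passed 1.5-fold on either array. PSMB8-AS1, low with #2 as given above, faces PSMB8, which had 11.24 and 11.08 against 10.91. RTCA, an RNA 3′-phosphate cyclase gene, had the lowest sense ratio of all pairs with #1, with 9.25 and 14.19 against 13.61. RTCA-AS1, with its start 42 bases away, had 5.22 and 4.35 against 4.40, so it was included through the #1 array alone.

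HHIP encodes a membrane protein that binds hedgehog ligands and holds the pathway back. HHIP-AS1 had 4.14 with siTMPO-AS1 #1 and 5.21 with #2, against 5.91 with siControl (3.39-fold and 1.62-fold lower), and HHIP had 6.62 and 10.75 against 9.53. The #1 signal of HHIP-AS1 was under 4.42. The pair was lower together with #1, while with #2 the antisense gene was below control and the sense gene above it.

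**Figure D4:**
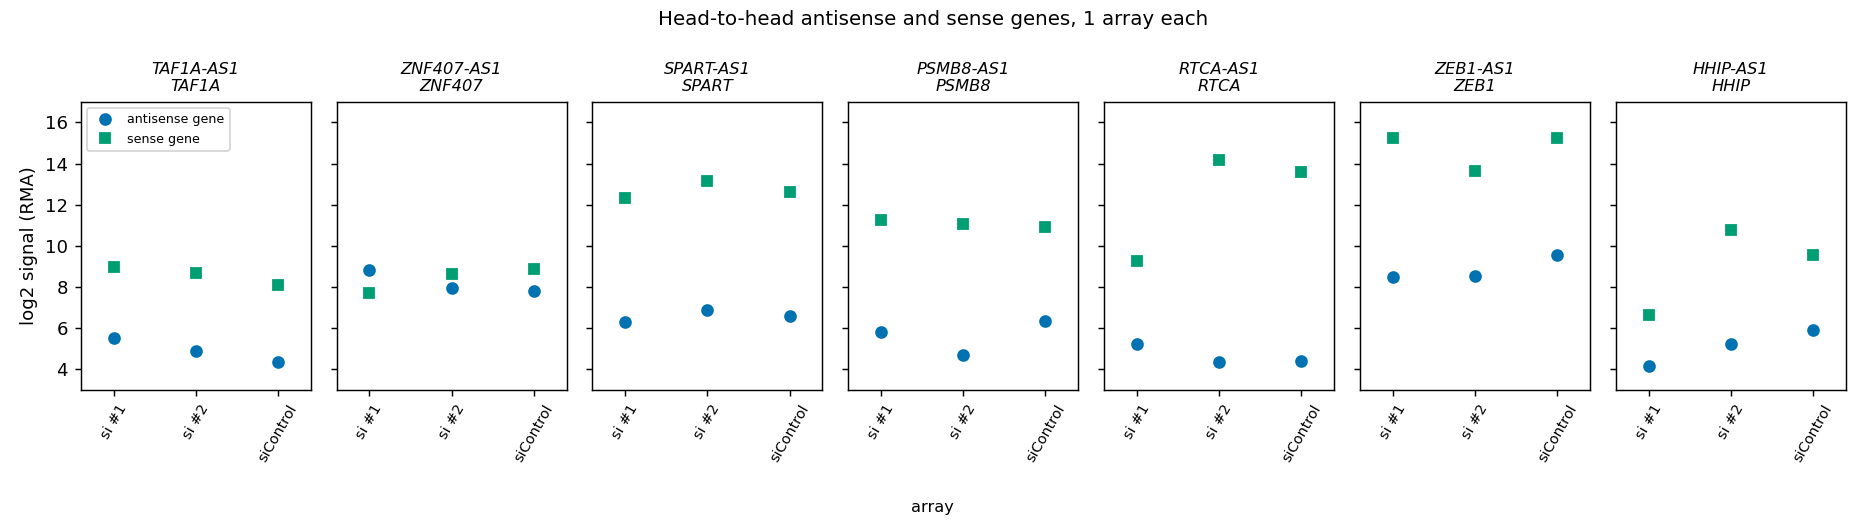
Log2 signal of the antisense gene (blue circles) and the sense gene (green squares) of 7 head-to-head pairs on the siTMPO-AS1 #1, siTMPO-AS1 #2 and siControl arrays, 1 point an array, ordered by the number of bases between the starts. Levels of different genes come from different probe sets and are not comparable, so only the pattern across arrays should be read: ZNF407 is low with #1 (7.68 against 8.85) where ZNF407-AS1 is high (8.82 against 7.81).

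Further pairs with large ratios on the siTMPO-AS1 #1 array went both ways. Both genes were higher for ENTPD3-AS1 (7.41 with #1 against 6.42 with siControl) and the ectonucleotidase gene ENTPD3 (9.25 against 7.66), and for FAS-AS1 (7.39 against 5.99) and the death receptor gene FAS (8.81 against 7.85). The other probe sets of FAS-AS1 were below 4.42, and the mean of its 3 probe sets had a log2 ratio of 0.06. Opposite ways went RAP2C-AS1 (9.5 against 8.07) and the small GTPase gene RAP2C (9.78 against 12.86), and ST3GAL6-AS1 (5.43 against 6.80) and the sialyltransferase gene ST3GAL6 (13.13 against 11.53). CARD8-AS1 (4.94 against 5.82) was below control and the inflammasome gene CARD8 (9.79 against 8.56) above it. ZNF22-AS1 (5.82 against 4.87) was above control and ZNF22 (9.41 against 10.55) below it.

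On the siTMPO-AS1 #2 array both genes were lower for MYLK-AS1 (7.62 with #2 against 8.74 with siControl) and the myosin light chain kinase gene MYLK (8.55 against 9.56). Both were higher for FAM83H-AS1 (6.46 against 5.59) and FAM83H (5.65 against 4.43), besides SAMD12 and SAMD12-AS1, where SAMD12-AS1 was above 4.42 with #2 only. Opposite ways went NDFIP2-AS1 (4.09 against 4.79) and NDFIP2, an adaptor gene of ubiquitin ligases (10.52 against 9.15), and GLYCTK-AS1 (5.30 against 4.62) and the glycerate kinase gene GLYCTK (4.47 against 5.45). NDFIP2-AS1 was under 4.42 with #2. GLYCTK-AS1 was inside 1.5-fold with the mean of its probe sets (log2 ratio 0.53), which ends that pair. PAXIP1-AS2 and RBMS3-AS3 were above control while their sense genes were below it by 1.5-fold or more.

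Probe sets of the same antisense gene give a view of how far the values repeat. Antisense genes that share the symbol before -AS are different RNAs and are no repeat measurements. Sense symbols with 2 antisense genes each numbered 4. DLGAP1-AS1 (8.20 and 6.91 against 7.85) and DLGAP1-AS2 (5.90 and 5.32 against 5.73) had the same order of arrays, as did HOXB-AS1 (4.76 and 4.41 against 4.77) and HOXB-AS4 (4.52 and 4.30 against 4.62). WDFY3-AS1 (5.07 and 5.85 against 5.25) and WDFY3-AS2 (6.50 and 5.51 against 5.67) did not, nor did the RBMS3 pair. All HOXB ratios were inside 1.5-fold, and the log2 ratio of HOXB-AS1 with #1 was only -0.01. More than 1 probe set was present for 15 of the 278 genes. For ZNF561-AS1 both probe sets gave similar log2 ratios, 0.28 and -0.77 for the brighter and 0.22 and -0.75 for the dimmer. For PGM5-AS1 they gave 0.93 and 0.44 and -0.51 and 0.74, so the sign with #1 depended on the probe set. The same held for HIF1A-AS2, given above, and for ASMTL-AS1. The ratios of ASMTL-AS1, all inside 1.5-fold, were 0.11 and -0.48 for the brighter and -0.12 and -0.22 for the dimmer probe set. All probe sets of SERTAD4-AS1 were below control with #1, as given above.

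Machinery that removes or partners non-coding transcripts was listed too. The nuclear RNA exosome degrades many short-lived antisense and promoter transcripts. Of 20 listed exosome and adaptor symbols, MTREX and SKIV2L2 being the same gene, 17 were tested. With siTMPO-AS1 #1, 4 of the 17 were higher and 6 lower (median log2 ratio -0.18, with 16.6% higher and 18.8% lower among all genes tested). With siTMPO-AS1 #2, 6 were higher and 0 lower (median 0.17, with 16.1% and 10.4% among all genes tested). The core subunit gene EXOSC2 had 8.06 and 9.70 against 9.74, EXOSC5 had 9.74 and 10.16 against 9.03, and EXOSC7 had 11.09 and 10.76 against 10. The exonuclease gene DIS3 had 12.45 and 14.15 against 13.39. Of the adaptors, RBM7 had 13.33 and 13.14 against 12.28 and ZCCHC7 had 9.82 and 12.01 against 11.19.

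PRC2, the complex that methylates histone H3 and that binds many RNAs, had 10 of 11 listed genes tested, of which 3 were higher and 4 lower with siTMPO-AS1 #1 (median -0.03) and 2 higher and 0 lower with siTMPO-AS1 #2 (median 0.20), beside the same shares of all genes tested. The catalytic subunit gene EZH2 had 13.06 and 12.68 against 12.03, and EZH1 had 9.89 and 9.68 against 9.12. RBBP4 had 9.66 and 10.31 against 10.84. The accessory subunit genes MTF2 (11.27 and 13.06 against 13.17) and AEBP2 (9.66 and 11.90 against 11.49) were low with #1 only, and JARID2 had 12.21 and 11.35 against 11.38.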

How the data were processed

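Total RNA of 3 MDA-MB-231 samples was hybridised to 3 arrays. Each deposited column holds log2 values, and the submitters' processing notes name RMA and Affymetrix Expression Console. Neither versions nor a genome build is given in the sources used here. On all arrays 1144 of 138745 probe sets exceeded 16. The array medians were 3.75, 3.75 and 3.73 (#1, #2, siControl), and arrays have no read depth, so their number limits the precision. Exactly 1 symbol was paired with 36176 probe sets, several with 1119 and none with 101450. Log2 ratios were taken without further normalization. limma 3.58.1 (R 4.3.3) was run two-sided with Benjamini-Hochberg adjustment and was tested on simulated data.

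Alternatives were no filter on dim genes, a filter at 6, the mean of all probe sets, median centring, 2-fold, sense genes of any brightness and an intensity trend. The members and lists were chosen with earlier results of these data known. Named genes were those with the highest and lowest ratios per siRNA, on both siRNA arrays and between them, the brightest, those nearest the limit, the pairs with the largest ratios and the nearest starts, and up to 6 members of each list. RTCA-AS1 and genes given as complete small sets were added after their values were seen. Starts came from RefSeq (GRCh38.p14), and array coordinates were not used here. Of several starts per gene, the nearest served for arrangement and the sequences shown, and the first listed for motif and GC shares.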

Additional observations from a re-analysis of the deposited data

Results flagged for a closer look

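With 1 array per siRNA, 7 antisense genes were at least 1.5-fold above control with one siRNA and at least 1.5-fold below it with the other (2.52%, against 3.29% of all genes tested). The difference was not tested in any of them, and both ratios use the same control array. KCNAB1-AS2 was 3.40 higher on the log2 scale with siTMPO-AS1 #1 than with #2 (log2 ratios 1.09 and -2.31). RAP2C-AS1 was 2.69 higher with #1 (1.43 and -1.25), and NOP14-AS1 was 1.87 higher with #1 (0.94 and -0.94). The others were lower with #1 than with #2, with differences of -2.69 for MAGI2-AS3 (-1.37 and 1.32), -1.63 for PRKG1-AS1 (-0.60 and 1.04), -1.37 for CCNT2-AS1 (-0.77 and 0.60) and -1.20 for NUTM2B-AS1 (-0.60 and 0.60). The sense gene RAP2C went the other way (-3.08 and 0.40), and NOP14 (0.16 and 0.32) and CCNT2 (-0.36 and 0.35) stayed within 1.5-fold.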

How the results depend on the processing

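Counts of antisense genes are given in the order higher and lower with siTMPO-AS1 #1, then higher and lower with #2. They were 99, 87, 79 and 91 with no filter on dim genes (988 genes), 24, 22, 14 and 22 with a filter at 6 (104 genes) and 21, 10, 8 and 16 at 2-fold, which follows from testing more genes, fewer genes or a larger fold. Pairs past the fold the same way and opposite ways with #1, then with #2, were 40, 29, 25 and 16 with no filter, 9, 5, 5 and 1 with the filter at 6, and 3, 3, 4 and 0 at 2-fold, where opposite pairs with #1 no longer fall short of same-way pairs. The median antisense log2 ratios with #1 and #2 were -0.01 and -0.11 after median centring and 0.03 and 0.02 with the filter at 6. These medians are close to 0, and their sign depends on the setting. With the mean of all probe sets every count stayed within 1.5 times, and limma called 0 genes under all 4 alternatives. Of 228 recomputed log2 ratios of named genes 218 kept their side of 1.5-fold, 6 dropped inside it and 4 passed it, and 0 changed sign from beyond it. Most of these ratios could hardly change, so the 218 is no measure of stability. Of the genes recomputed, only FAS-AS1, GLYCTK-AS1, HIF1A-AS2, PABPC1L2B-AS1 and SERTAD4-AS1 had more than 1 probe set. Centring moved the ratios by only 0.03 with #1 and 0.09 with #2. With the mean of all probe sets, FAS-AS1 (0.06) and HIF1A-AS2 (-0.01) with #1 dropped inside. GLYCTK-AS1 (0.53) and PABPC1L2B-AS1 (-0.57) did so with #2. No paired analysis was possible because each group has 1 array.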

Other observations

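Antisense genes under the limit of 4.42, 710 in number, also held values past 1.5-fold, 98 with siTMPO-AS1 #1 (13.8%, against 13.4% of all genes under the limit) and 91 with siTMPO-AS1 #2 (12.8%, against 13%), shares near those of all such genes. Of the 710, 58 were at or above 4.42 on 1 or 2 arrays. Another 25 probe sets carry an antisense symbol together with other symbols and were not used here.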
